A study of Arabidopsis thaliana with 24 samples.

Results

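Cytochrome P450 genes were taken as the probe sets that the array annotation assigned to exactly 1 gene with a symbol made of CYP, digits, a letter and digits, and whose mean signal was 20 or more in at least 1 of 12 groups. Of 22810 probe sets, 22 had such a symbol and 13 of these reached the signal level, each for a different gene. The 13 members are 12 genes of subfamily CYP71B and CYP84A4, and all 13 belong to the CYP71 clan. The values below describe these genes and not the P450 superfamily, for which the RefSeq gene table lists 225 genes with a symbol of this form. The 9 probe sets with such a symbol but a lower signal had highest group means of 15.0 (CYP78A9), 14.0 (CYP71B25), 13.4 (CYP71B38), 10.6 (CYP71B27), 9.6 (CYP51G2), 4.6 (CYP71B21), 2.7 (CYP71B31), 2.4 (CYP71B16) and 2.0 (CYP79A2). The members nearest to the level had highest group means of 29.2 (CYP71B37), 31.4 (CYP71B36) and 35.6 (CYP71B35). A further 6 probe sets with CYP in the symbol were left out, namely the cyclophilins CYP71 and CYP59, CYP71B30P, CYP718 and 2 probe sets that name a second gene beside a P450. Of the latter, the probe set of CYP71B20 and CYP71B19, both of subfamily CYP71B, had a highest group mean of 540.35. This is above the highest group mean of every member, of which CYP71B6 reached the most (526.85).

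P450s are haem-thiolate enzymes, mostly anchored in the endoplasmic reticulum, that insert an oxygen atom from O2 into small molecules with electrons passed on by a P450 reductase. In plants they build hormones, lignin monomers, pigments and defence compounds, and the CYP71 clan is the large plant lineage that holds most enzymes of specialised metabolism. CYP71B6 (AT2G24180) acts on indole-3-acetonitrile, an intermediate next to the phytoalexin camalexin. CYP84A4 (AT5G04330) is a relative of ferulate 5-hydroxylase that makes catechol-type phenylpropanoids on the way to arabidopyrones. The remaining members are named without a role here.

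RNA came from 10-day-old Columbia seedlings kept at 22 °C on MS plates after sterilisation and cold treatment of the seed. Seedlings of WT, of the atmyc2 and cop1-6 single mutants and of their double mutant (atmyc2 cop1-6) were grown in constant darkness, in constant blue light of 35 µmol per s per m2, or in the same blue light with 0.5 µM abscisic acid (ABA, a unit the labels write as um), with 2 biological replicates per group and thus 24 arrays. AtMYC2, a bHLH regulator, is known from jasmonate, ABA and light responses. COP1 is the ubiquitin ligase that holds back light-grown development in darkness, and cop1-6 is a viable allele. Whole seedlings were used, so fewer cells of a type and less RNA per cell cannot be told apart, and it is not stated whether replicates were separate cultures, so p-values measure the spread between these samples only.

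Of 22810 probe sets, 16202 were tested with limma on log2 of the signal plus 1, and a change is called where the Benjamini-Hochberg adjusted p lay below 0.05. All 13 members were among them, yet 8 had a mean under 20 in at least 1 group. For a member that passed only through groups where it is high, the member rule favours a difference. Median signals per array were 26.5 to 41.2, and signals under 19.1, the 40th percentile of all values, are referred to as dim. Replicates correlated with r from 0.944 to 0.978 across probe sets, which are not independent. The pair of cop1-6 arrays with ABA was more than 2-fold apart at 1980 probe sets, with replicate 1 being closest to a double mutant array with ABA (r = 0.969) and replicate 2 to a WT array with ABA (r = 0.956). Poly-A spike-in controls averaged 862 to 986 on the WT and atmyc2 arrays in darkness, 209 to 338 on those with cop1-6 in darkness, 77.3 to 126 with ABA and 5.01 to 12.7 in blue light alone. Batch and growth condition can therefore not be told apart, nor batch and cop1-6 status in darkness. A log2 ratio of 3 prime to 5 prime GAPDH signals, a sign of RNA quality, was 0.84 to 1.26 on the WT and atmyc2 arrays in darkness against 0.25 to 0.85 on the others with one pair of control probe sets, and -0.33 to 0.01 against -0.27 to 0.08 with another. The 25S ribosomal RNA control read 769.5 to 2762.5 on the 8 arrays with ABA, 28.5 to 96.3 in blue light alone and 4.6 to 189.9 in darkness, and its part in the ABA results below was not tested. The annotation lists neither MYC2 nor COP1, so the targeted genes were not checked by name. Of the green tissue markers, 1 of 7 had a listed probe set, RCA, which activates Rubisco and read 350 to 401 in WT darkness, 1466 to 1589 in cop1-6 darkness and 3129 to 5317 in blue light. Of the root markers, 3 of 9 had a probe set and their summed signal is given beside the ABA values. Pollen markers (3 of 5) summed to 1.7 to 16.3, and no seed reserve marker of 8 had a probe set.

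The first question was what constant blue light changed relative to darkness. In WT, CYP71B22, CYP71B24, CYP71B26 and CYP71B5 rose and CYP84A4 fell, which are 5 of 13 members (38.5%) against 45.9% of all tested probe sets. In atmyc2, 8 members rose and 1 fell (69.2% of members, 54.7% of probe sets), and in cop1-6 also 8 rose and 1 fell (69.2%, 54.1%). In the double mutant 6 rose and none fell (46.2%, 39.4%). The median log2 change of the members was 0.54 in WT, 1.4 in atmyc2, 1.62 in cop1-6 and 0.89 in the double mutant, beside -0.02, 0.28, 0.14 and 0.03 over all tested probe sets. CYP71B24 and CYP71B26 rose in all 4 genotypes. CYP71B35, CYP71B36 and CYP71B37 reached a mean of 20 only in blue light, as did CYP71B22 in WT and atmyc2. For them the member rule favours a rise in the counts and medians above.

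**Figure D1:**
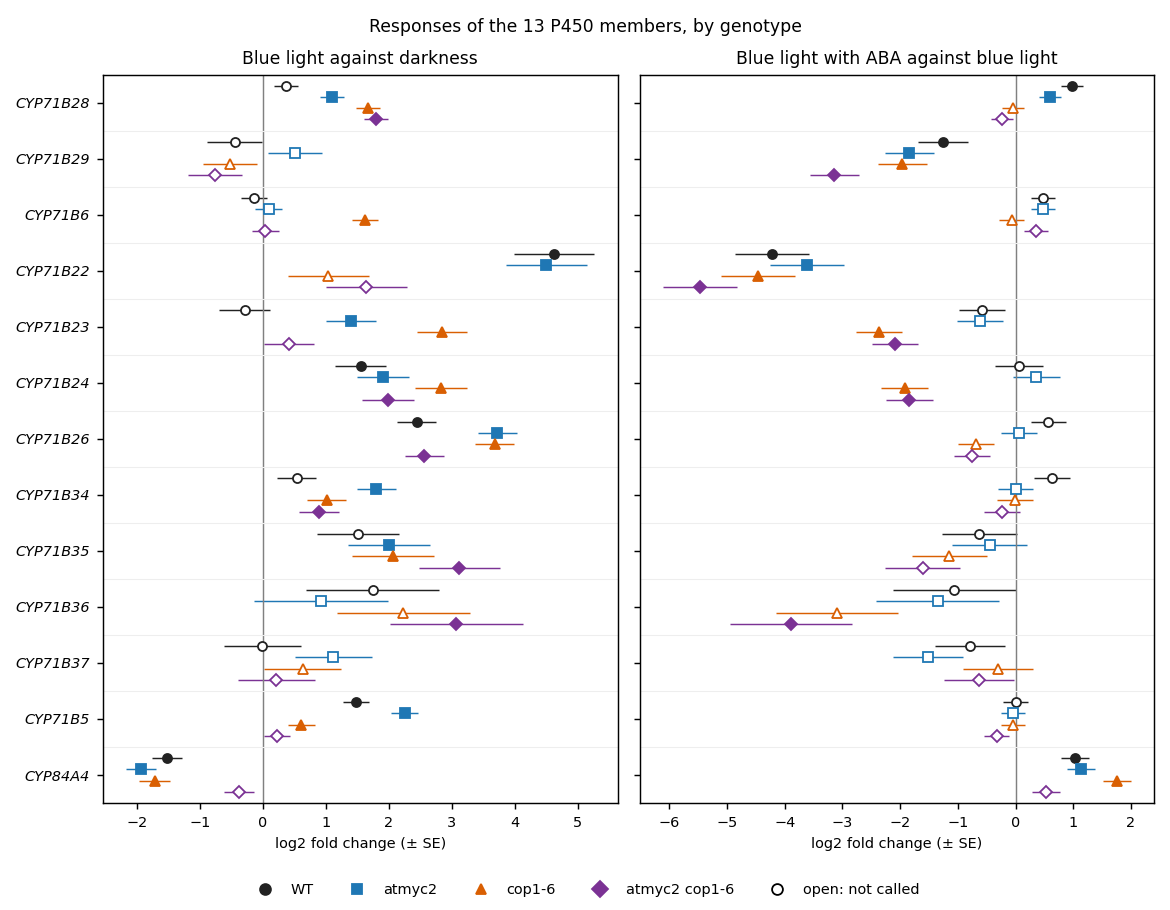
Log2 fold changes (± SE from limma) of the 13 members, in gene order along the genome from top to bottom, for blue light against darkness (left) and blue light with ABA against blue light (right) by genotype, 2 arrays per group. Filled symbols are called at an adjusted p below 0.05. CYP71B26 lies right of 0 in light in all 4 genotypes, CYP84A4 lies left of 0 in light and right of 0 with ABA, and CYP71B22 lies furthest left with ABA.

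The second question was what ABA changed in light-grown seedlings. CYP71B22 and CYP71B29 were called lower with ABA in all 4 genotypes. CYP84A4 rose in WT, atmyc2 and cop1-6, and CYP71B28 rose in WT and atmyc2. In WT and in atmyc2, 2 members rose and 2 fell (30.8% of members, against 34.9% and 21.8% of probe sets). In cop1-6, 1 rose and 4 fell (38.5% against 13.4%), and in the double mutant none rose and 5 fell (38.5% against 23.3%). The members' median log2 change was 0.00 in WT, -0.04 in atmyc2, -0.68 in cop1-6 and -0.76 in the double mutant, beside 0.10, 0.03, -0.01 and -0.03 over all probe sets. CYP71B22, CYP71B29, CYP71B35, CYP71B36 and CYP71B37 reached a mean of 20 in no group with ABA. For them the member rule favours a fall in these counts and medians. The light and ABA comparisons share their blue light arrays, so an opposite sign in them for 1 gene is not independent evidence.

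Among the members with a known role, CYP84A4 had its highest levels in darkness in WT and atmyc2, while in cop1-6 and the double mutant the dark and ABA arrays overlapped. It read 107.9 and 96.0 in WT, 122.5 and 110.7 in atmyc2, 71.5 and 52.8 in cop1-6, and 39.0 and 40.6 in the double mutant in darkness. In blue light it read 41.0 and 29.6 in WT, 34.9 and 25.5 in atmyc2, 16.7 and 19.3 in cop1-6, and 35.6 and 25.9 in the double mutant. With ABA the same order of genotypes gave 69.5 and 74.5, 60.9 and 72.2, 58.2 and 69.0, and 36.7 and 53.1. All dark arrays except those of the double mutant lay above all blue light arrays, and ABA values lay between those of darkness and blue light in WT and atmyc2. Blue light lowered CYP84A4 by log2 -1.52 ± 0.24 in WT (2.87-fold, adjusted p = 5.01e-05), -1.93 ± 0.24 in atmyc2 and -1.72 ± 0.24 in cop1-6, whereas the double mutant gave -0.38 ± 0.24 (adjusted p = 0.232). ABA raised it by log2 1.03 ± 0.24 in WT (2.04-fold, adjusted p = 0.00345), 1.13 ± 0.24 in atmyc2 (adjusted p = 0.00285) and 1.76 ± 0.24 in cop1-6 (adjusted p = 1.15e-04), against 0.53 ± 0.24 in the double mutant (adjusted p = 0.131). The cop1-6 ABA increase was log2 1.88 without replicate 1 of the ABA pair and 1.64 without replicate 2. It was no longer called when only the arrays of the groups compared were fitted (adjusted p = 0.0655). Because CYP84A4 is dim in cop1-6 in blue light, the cop1-6 changes depend on the pseudocount, and with 19.1 added in place of 1 they were -1.12 for light and 1.15 for ABA, both called.

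CYP84A4 was also lower in cop1-6 than in WT, by log2 -0.72 ± 0.24 in darkness (adjusted p = 0.0330) and -0.92 ± 0.24 in blue light (adjusted p = 0.00744), and by -0.18 ± 0.24 with ABA (adjusted p = 0.782). With 19.1 added these were -0.58, -0.55 and -0.14, the first 2 called. The arrays of the groups did not overlap in darkness or in blue light. The darkness call was lost with quantile normalization (adjusted p = 0.0639), in a fit of these arrays alone (0.0809) and without WT replicate 1 (0.151), WT replicate 2 (0.0754) or cop1-6 replicate 2 (0.228). The blue light call was lost in a fit of these arrays alone (adjusted p = 0.0692) and without replicate 1 of WT (0.111) or of cop1-6 (0.0655).

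CYP71B6, the enzyme of indole-3-acetonitrile, was bright in every group. In darkness it read 284.0 and 297.4 in WT, 230.1 and 222.9 in atmyc2, 162.3 and 174.5 in cop1-6, and 455.0 and 348.1 in the double mutant. In blue light the readings were 266.5 and 259.8, 182.8 and 315.9, 441.1 and 612.6, and 426.9 and 391.9 in the same order. With ABA they were 378.9 and 352.6, 329.0 and 335.5, 536.2 and 456.8, and 498.2 and 553.6. In darkness cop1-6 was the lowest genotype and the double mutant the highest, and none of the 4 pairs overlapped. In blue light cop1-6 and the double mutant both lay above WT, and with ABA both lay above WT and atmyc2.

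In numbers, CYP71B6 was lower in cop1-6 than in WT in darkness by log2 -0.78 ± 0.21 (1.72-fold, adjusted p = 0.00800) and higher in blue light by 0.98 ± 0.21 (1.97-fold, adjusted p = 0.00167). The darkness call was lost without replicate 2 of WT (adjusted p = 0.0530). Light raised it in cop1-6 by log2 1.62 ± 0.21 (3.08-fold, adjusted p = 4.79e-06), while the change was -0.14 ± 0.21 in WT, 0.09 ± 0.21 in atmyc2 and 0.04 ± 0.21 in the double mutant. Compared with WT, cop1-6 had a light response larger by log2 1.76 ± 0.29 (adjusted p = 1.72e-04). In darkness the double mutant exceeded cop1-6 by log2 1.24 ± 0.21 (2.36-fold, adjusted p = 0.00778), a call lost without replicate 1 of cop1-6 (adjusted p = 0.0763) or of the double mutant (0.152). ABA gave no call for CYP71B6 in any genotype, with changes of 0.47 ± 0.21 in WT (adjusted p = 0.0843), 0.47 ± 0.21 in atmyc2, -0.07 ± 0.21 in cop1-6 and 0.36 ± 0.21 in the double mutant. Without blue light replicate 2 the atmyc2 change was called (0.86, adjusted p = 0.00925).

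**Figure D2:**
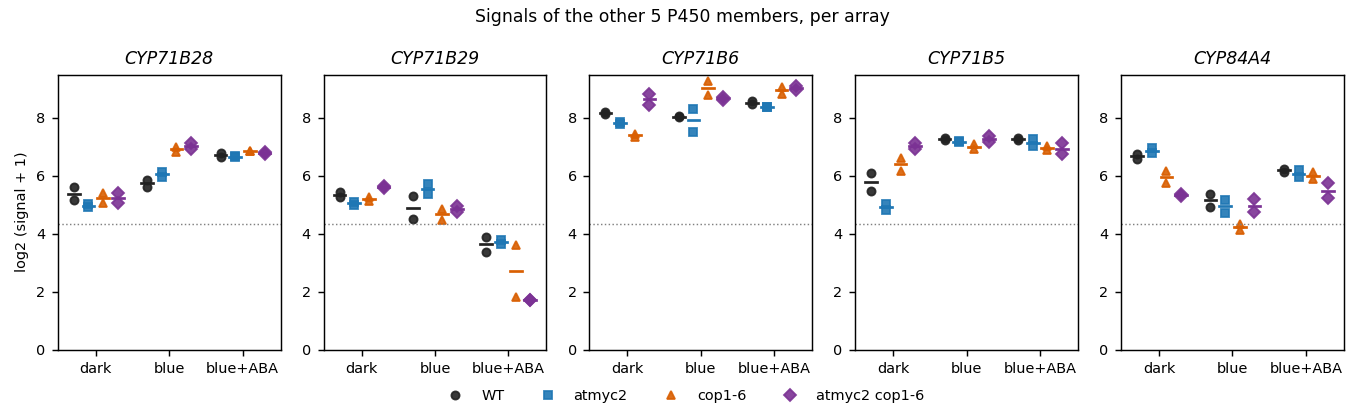
Signal of the 5 members outside the chromosome 3 stretch on each of the 24 arrays, as log2 (signal + 1), by growth condition and genotype. Each point is 1 array, the bar is the mean of 2 arrays, the dotted line is the dim level of 19.1, and levels are not comparable between panels. CYP84A4 is highest in WT and atmyc2 in darkness, CYP71B29 is lowest with ABA, and CYP71B5 is spread more widely between genotypes in darkness than in light.

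CYP71B28 (AT1G13090) and CYP71B29 (AT1G13100) are direct neighbours in the RefSeq gene order and behaved differently. CYP71B28 read 47.7 and 35.1 in WT, 29.5 and 31.4 in atmyc2, 32.7 and 41.9 in cop1-6, and 41.7 and 32.9 in the double mutant in darkness. The blue light readings were 57.3 and 48.4, 62.1 and 69.5, 126.5 and 113.7, and 139.5 and 121.8. With ABA it read 109.3 and 98.6, 101.2 and 99.6, 115.9 and 115.8, and 113.6 and 106.3. In darkness WT, cop1-6 and the double mutant overlapped and atmyc2 lay just below them, both lines with cop1-6 stood above the others in blue light, and with ABA all 8 arrays lay between 98.6 and 115.9. Blue light raised CYP71B28 by log2 1.09 ± 0.19 in atmyc2, 1.67 ± 0.19 in cop1-6 and 1.79 ± 0.19 in the double mutant, and the WT change was 0.36 ± 0.19 (adjusted p = 0.138). In blue light cop1-6 exceeded WT by log2 1.17 ± 0.19 (2.25-fold, adjusted p = 2.01e-04). ABA raised it by 0.97 ± 0.19 in WT (adjusted p = 8.64e-04) and 0.60 ± 0.19 in atmyc2 (adjusted p = 0.0295), and the changes in cop1-6 and the double mutant were -0.05 ± 0.19 and -0.24 ± 0.19. The WT light change was called without dark replicate 1 (0.57, adjusted p = 0.0497). The atmyc2 ABA call was lost when any 1 of the 4 arrays was left out (adjusted p from 0.0620 to 0.184).

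The CYP71B28 light response of cop1-6 exceeded that of WT by log2 1.31 ± 0.27 (adjusted p = 0.00112), and the ABA response was smaller by -1.02 ± 0.27 (adjusted p = 0.0320). Both differences share the blue light arrays. The second was -1.02 without replicate 1 of the cop1-6 ABA pair (adjusted p = 0.0680) and -1.01 without replicate 2 (0.0397). It was also lost with quantile normalization (0.0546), in a fit of these arrays alone (0.120), without either ABA array of WT (0.127 and 0.0740), without either blue light array of cop1-6 (0.119 and 0.0523) and without blue light replicate 1 of WT (0.0588).

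CYP71B29 read 31.1 to 49.8 on the 8 arrays in darkness (median 37.45), 21.5 to 52.2 in blue light (median 29.15) and 2.3 to 14.0 with ABA (median 10.4). Every ABA array lay below every other array. No light change was called, that of the double mutant, -0.76 ± 0.43 (adjusted p = 0.169), being called with 19.1 added (-0.51, 0.0282) and in a fit of these arrays alone (0.0492). ABA lowered it by log2 -1.26 ± 0.43 in WT (adjusted p = 0.0288), -1.84 ± 0.43 in atmyc2 (0.00479), -1.96 ± 0.43 in cop1-6 (0.00485) and -3.14 ± 0.43 in the double mutant (4.36e-05). Because all the ABA values are dim, the size depends on the pseudocount, and with 19.1 added in place of 1 the changes were -0.66, -1.06, -0.77 and -1.14. In cop1-6 with ABA it read 11.4 and 2.5, and the change was -2.87 without replicate 1 and -1.05 without replicate 2, the latter not called (adjusted p = 0.0596). That call was also lost without blue light replicate 2 of cop1-6 (0.0547) and in a fit of these arrays alone (0.222). The WT call was lost without blue light replicate 2 (0.201), without ABA replicate 1 (0.196) and in a fit of these arrays alone (0.0559), and the atmyc2 call without blue light replicate 1 (0.0570). The summed root markers with ABA were 86.3 and 130.3 in WT, 120.8 and 98.0 in atmyc2, 5.7 and 119.6 in cop1-6, and 4.8 and 7.7 in the double mutant, and their part in the ABA values of any member was not tested. The third root marker, AT5G66815, was near 0 throughout, so these sums rest on EXPA7 and EXPA18 alone. They do not measure how much root was in a sample.

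CYP71B5 (AT3G53280), elsewhere on chromosome 3, separated the genotypes in darkness. There it read 44.1 and 67.0 in WT, 27.2 and 31.8 in atmyc2, 71.1 and 97.3 in cop1-6, and 122.0 and 140.9 in the double mutant. The 4 pairs did not overlap, atmyc2 being lowest and the double mutant highest. In blue light the 8 arrays ran from 120.2 to 166.3 (median 143.95) and with ABA from 107.4 to 156.4 (median 134.55). The genotypes were thus closer to each other in light, and each ABA change was small, from -0.33 ± 0.21 in the double mutant to 0.00 ± 0.21 in WT, with none called. Light raised CYP71B5 by log2 1.48 ± 0.21 in WT (2.79-fold), 2.25 ± 0.21 in atmyc2 (4.77-fold) and 0.61 ± 0.21 in cop1-6 (1.53-fold, adjusted p = 0.0180), against 0.22 ± 0.21 in the double mutant (adjusted p = 0.411). The cop1-6 call was lost with quantile normalization (0.103), in a fit of these arrays alone (0.0758) and without replicate 1 in darkness (0.206) or in blue light (0.109).

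In darkness CYP71B5 was the sole member called between atmyc2 and WT (log2 -0.86 ± 0.21, 1.82-fold lower, adjusted p = 0.0117), and it was higher in cop1-6 than in WT by 0.60 ± 0.21 (adjusted p = 0.0338). The atmyc2 call was lost without replicate 2 of WT (0.150) or replicate 1 of atmyc2 (0.0984). The cop1-6 call was lost without replicate 1 of WT (0.362), without replicate 2 of cop1-6 (0.269), with quantile normalization (0.0536) and in a fit of these arrays alone (0.190). Its light response in cop1-6 was smaller than in WT by log2 -0.87 ± 0.29 (adjusted p = 0.0271). That call was lost in a fit of these arrays alone (0.110) and without replicate 1 of WT in darkness (0.150) or blue light (0.0688), or replicate 2 of cop1-6 in darkness (0.113) or blue light (0.0864).

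The other 8 members, from CYP71B22 (AT3G26200) to CYP71B37 (AT3G26330), lie on 1 stretch of chromosome 3. In the RefSeq gene order this stretch holds 18 genes, of which 12 are CYP71B genes or pseudogenes. Its ends were set at the first and last member, and CYP71B21, which missed the signal level, lies directly before CYP71B22. All 8 members are annotated as protein coding. Members of such a cluster are similar in sequence, and the probe sequences were not used here, so signal from a near copy cannot be told apart. The patterns of the 8 members are given gene by gene below, and the part of near copies in them was not tested.

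**Figure D3:**
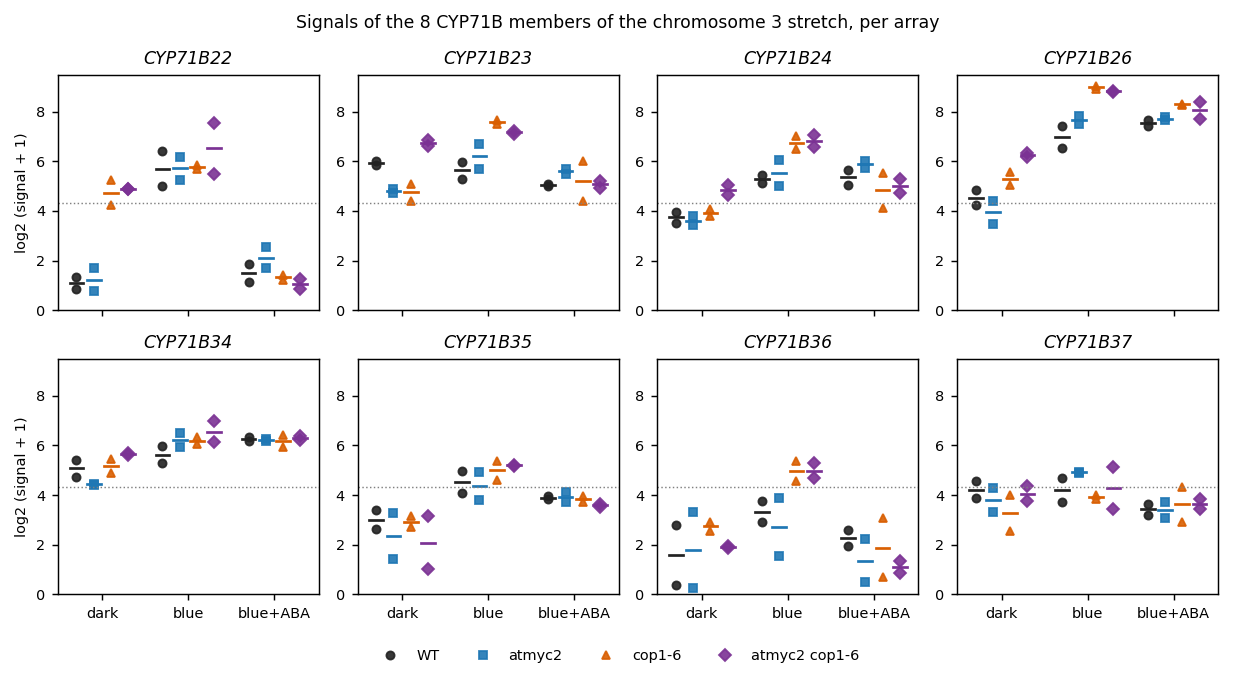
Signal of the 8 members of the chromosome 3 stretch on each of the 24 arrays, as log2 (signal + 1), by growth condition and genotype, with panels in gene order. Each point is 1 array, the bar is the mean of 2 arrays, the dotted line is the dim level of 19.1, and levels are not comparable between panels. CYP71B22 is dim on all 8 arrays with ABA and on the WT and atmyc2 arrays in darkness, and CYP71B26 is above the dim level on all arrays in blue light.

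CYP71B22 was dim in some groups and well above the dim level in others. In darkness it read 0.8 and 1.5 in WT and 0.7 and 2.2 in atmyc2, but 17.9 and 36.6 in cop1-6 and 28.3 and 28.6 in the double mutant. In blue light it read 31.1 and 84.1 in WT, 71.7 and 37.2 in atmyc2, 57.1 and 50.5 in cop1-6, and 185.1 and 44.3 in the double mutant. With ABA it read 2.6 and 1.2, 2.2 and 4.8, 1.7 and 1.3, and 1.4 and 0.8. All 8 ABA arrays and the 4 dark arrays with wild-type COP1 lay at or below 4.8, and all 8 blue light arrays at or above 31.1. The genotypes overlapped in blue light.

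Blue light raised CYP71B22 by log2 4.62 ± 0.64 in WT (24.6-fold, adjusted p = 1.05e-05) and 4.5 ± 0.64 in atmyc2 (22.6-fold, adjusted p = 1.03e-05), and with 19.1 added in place of 1 the changes were 1.83 and 1.80. The changes in cop1-6 and the double mutant were 1.04 ± 0.64 (adjusted p = 0.181) and 1.64 ± 0.64 (adjusted p = 0.05 after rounding), neither of them called. The double mutant change was called with 19.1 added (1.26, adjusted p = 0.0192), without trend and robust moderation (0.0428) and without blue light replicate 2 (2.66, 0.00727). ABA lowered it by log2 -4.22 ± 0.64 in WT, -3.61 ± 0.64 in atmyc2, -4.46 ± 0.64 in cop1-6 and -5.47 ± 0.64 in the double mutant, and by -1.78, -1.66, -1.82 and -2.49 with 19.1 added. The cop1-6 change was -4.57 without replicate 1 of the ABA pair and -4.34 without replicate 2, and it was not called in a fit of these arrays alone (adjusted p = 0.0560). In darkness cop1-6 exceeded WT by log2 3.65 ± 0.64 (adjusted p = 3.15e-04), or 1.16 with 19.1 added (adjusted p = 0.0375). RCA, the green tissue marker, was also higher in cop1-6 than in WT in darkness, and its part in this difference was not tested. Its light response in cop1-6 was smaller than in WT by -3.59 ± 0.91 (adjusted p = 0.00517), which fell to -1.15 and was not called with 19.1 added (adjusted p = 0.128).

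CYP71B23 (AT3G26210), the next gene, had a different pattern in darkness, where the single mutants overlapped. There it read 56.2 and 63.9 in WT, 28.2 and 25.7 in atmyc2, 20.1 and 33.1 in cop1-6, and 116.6 and 98.1 in the double mutant. The blue light readings were 38.1 and 62.5, 50.8 and 103.6, 180.1 and 201.8, and 148.6 and 136.5. With ABA it read 33.3 and 31.4, 50.2 and 44.4, 20.3 and 63.6, and 36.2 and 29.3. In darkness each single mutant lay below WT and the double mutant above it, whereas in blue light both lines with cop1-6 lay above the others. With ABA the cop1-6 arrays spanned the range of all other arrays.

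Light raised CYP71B23 in cop1-6 by log2 2.84 ± 0.40 (7.14-fold, adjusted p = 1.30e-05) and in atmyc2 by 1.4 ± 0.40 (adjusted p = 0.00596), with -0.29 ± 0.40 in WT and 0.41 ± 0.40 in the double mutant. The atmyc2 call was lost without blue light replicate 2 (adjusted p = 0.121). The difference in light response between cop1-6 and WT was 3.13 ± 0.56 (adjusted p = 3.54e-04). In blue light cop1-6 exceeded WT by log2 1.94 ± 0.40 (3.85-fold, adjusted p = 0.00129), and in darkness it was lower by -1.18 ± 0.40 (2.27-fold, adjusted p = 0.0311). The darkness call was lost without either WT array (0.0786 and 0.141) and without replicate 1 of cop1-6 (0.221). The double mutant exceeded cop1-6 in darkness by 2.01 ± 0.40 (4.02-fold, adjusted p = 0.0197), a call lost without replicate 1 of cop1-6 (0.236) or either double mutant array (0.203 and 0.0819). ABA lowered it by log2 -2.37 ± 0.40 in cop1-6 (5.17-fold, adjusted p = 6.23e-04) and -2.09 ± 0.40 in the double mutant (4.27-fold, adjusted p = 8.75e-04), and the changes in WT and atmyc2 were -0.58 ± 0.40 and -0.61 ± 0.40. The cop1-6 change was -1.57 without replicate 1 of the ABA pair and -3.17 without replicate 2, and it was not called in a fit of these arrays alone (0.140).

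CYP71B24 (AT3G26230) rose in light in every genotype. In darkness it read 9.8 to 15.8 in the 6 arrays of WT, atmyc2 and cop1-6, and 31.6 and 24.2 in the double mutant. In blue light it read 33.7 and 43.2 in WT, 30.7 and 65.2 in atmyc2, 89.0 and 128.6 in cop1-6, and 95.5 and 133.7 in the double mutant. With ABA it read 49.5 and 32.0, 64.1 and 52.3, 16.6 and 45.1, and 25.1 and 37.8. In blue light both lines with cop1-6 lay above the others, and with ABA they overlapped WT. Light raised it by log2 1.55 ± 0.41 in WT (adjusted p = 0.00477), 1.91 ± 0.41 in atmyc2, 2.83 ± 0.41 in cop1-6 and 1.99 ± 0.41 in the double mutant. With 19.1 added these were 0.86, 1.10, 1.92 and 1.5. The light response of cop1-6 minus that of WT, 1.28 ± 0.58 (adjusted p = 0.0990), was called with 19.1 added (1.06, 0.0335). The WT call was lost without dark replicate 2 (adjusted p = 0.0514).

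In blue light CYP71B24 was higher in cop1-6 than in WT by log2 1.46 ± 0.41 (2.76-fold, adjusted p = 0.0109), a call lost without WT replicate 1 (0.0990) or cop1-6 replicate 2 (0.0960). ABA lowered it by -1.92 ± 0.41 in cop1-6 (adjusted p = 0.00426) and -1.84 ± 0.41 in the double mutant (adjusted p = 0.00333), and the changes in WT and atmyc2 were 0.06 ± 0.41 and 0.36 ± 0.41. The cop1-6 change was -1.23 without replicate 1 of the ABA pair (adjusted p = 0.0965) and -2.62 without replicate 2, and it was also not called without blue light replicate 2 (0.0597) or in a fit of these arrays alone (0.164). The ABA response of cop1-6 was below that of WT by -1.98 ± 0.58 (adjusted p = 0.0479), close to the threshold. Without replicate 1 of the cop1-6 ABA pair it was -1.29 (adjusted p = 0.172), and without replicate 2 -2.68 (0.00451). It was also lost in a fit of these arrays alone (0.158), with quantile normalization (0.0567), without a filter on dim probe sets (0.0581), without trend and robust moderation (0.0665), and without any 1 of the other arrays except blue light replicate 2 of WT (adjusted p from 0.0734 to 0.182).

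CYP71B26 (AT3G26290) also rose in light in every genotype. In darkness it read 17.8 and 27.5 in WT, 10.1 and 20.3 in atmyc2, 31.7 and 46.6 in cop1-6, and 79.9 and 71.0 in the double mutant. The blue light readings were 91.7 and 169.6, 180.6 and 225.3, 526.1 and 483.7, and 438.8 and 462.0. With ABA it read 204.2 and 168.7, 200.8 and 219.0, 309.4 and 318.6, and 210.4 and 333.9. In darkness and in blue light the lines with cop1-6 lay above the others on every array. Light raised CYP71B26 by log2 2.44 ± 0.31 in WT (5.43-fold), 3.72 ± 0.31 in atmyc2 (13.2-fold), 3.68 ± 0.31 in cop1-6 (12.8-fold) and 2.56 ± 0.31 in the double mutant (5.91-fold).

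In blue light CYP71B26 was higher in cop1-6 than in WT by log2 2.01 ± 0.31 (4.02-fold, adjusted p = 1.43e-04), and in darkness the difference was 0.77 ± 0.31 (adjusted p = 0.0729, or 0.0377 with a replicate block). Its light response in cop1-6 was larger than in WT by 1.24 ± 0.44 (adjusted p = 0.0373). This call was lost with quantile normalization (0.0644), without trend and robust moderation (0.0558), in a fit of these arrays alone (0.0757) and without WT dark replicate 2 (0.158), cop1-6 dark replicate 1 (0.148), WT blue light replicate 1 (0.204) or either cop1-6 blue light array (0.0970 and 0.0651). The ABA changes of CYP71B26 ran from -0.76 ± 0.31 in the double mutant (adjusted p = 0.0878, or 0.0467 with a replicate block) to 0.57 ± 0.31 in WT (adjusted p = 0.167). The former was also called with 19.1 added (-0.72, 0.0278), and the latter without blue light replicate 2 (1.01, 0.0300).

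The last 4 members of the stretch are consecutive genes. CYP71B34 (AT3G26300) ran from 20.4 to 51.2 in darkness (median 35.35), from 37.9 to 124.1 in blue light (median 66.95) and from 59.5 to 85.8 with ABA (median 74.9). It rose in light by log2 1.80 ± 0.31 in atmyc2 (3.47-fold, adjusted p = 9.22e-05), 1.01 ± 0.31 in cop1-6 (adjusted p = 0.0111) and 0.89 ± 0.31 in the double mutant (adjusted p = 0.0315), with 0.54 ± 0.31 in WT. The cop1-6 call was lost with quantile normalization (0.0687) and without replicate 1 in darkness (0.133) or blue light (0.0808). The double mutant call was lost in a fit of these arrays alone (0.0519), without either dark array (0.0853 and 0.133) and without blue light replicate 1 (0.342). No ABA change was called, that of WT, 0.63 ± 0.31 (adjusted p = 0.124), being called without blue light replicate 2 (0.98, 0.0452).

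CYP71B35 (AT3G26310) was dim on all dark arrays, from 1.0 to 9.5 (median 6.7), and reached 12.9 to 40.9 in blue light (median 29.95) and 10.4 to 16.2 with ABA (median 12.75). Every blue light array lay above every dark array. Its light change was log2 1.51 ± 0.65 in WT (adjusted p = 0.0659), 2.00 ± 0.65 in atmyc2 (0.0144), 2.06 ± 0.65 in cop1-6 (0.0123) and 3.12 ± 0.65 in the double mutant (9.60e-04). With 19.1 added these were 0.66 (adjusted p = 0.0202), 0.71, 0.97 and 1.23, called in all 4 genotypes. Its ABA change in the double mutant, -1.61 ± 0.65 (adjusted p = 0.0826), was called with 19.1 added (-0.86, 0.00741) and in a fit of these arrays alone (0.0188). The atmyc2 call was lost without dark replicate 1 (0.235) or blue light replicate 2 (0.154), and the cop1-6 call without dark replicate 1 (0.0781) or blue light replicate 2 (0.104).

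CYP71B36 (AT3G26320) was dim on all dark arrays (0.2 to 8.9), on all ABA arrays (0.4 to 7.3) and on the blue light arrays of WT (6.5 and 12.4) and atmyc2 (1.9 and 13.7). In blue light it read 40.5 and 22.4 in cop1-6 and 37.9 and 24.6 in the double mutant, above all other arrays. It is a member only through these groups, so the member rule favours a difference in the comparisons that follow. In the double mutant it rose with light by log2 3.07 ± 1.06 (adjusted p = 0.0280) and fell with ABA by -3.89 ± 1.06 (adjusted p = 0.0123). With 19.1 added these were 1.19 (adjusted p = 5.24e-04) and -1.30 (adjusted p = 4.91e-04). The light call was lost when any 1 of the 4 arrays was left out (adjusted p from 0.0629 to 0.123), and the ABA call without blue light replicate 1 (0.0769) or ABA replicate 2 (0.0840). In cop1-6 the light change was 2.23 ± 1.06 (adjusted p = 0.0847) and the ABA change -3.10 ± 1.06 (adjusted p = 0.0618). With 19.1 added both were called (1.00, adjusted p = 0.00146, and -1.12, adjusted p = 0.00314), as were the light change in a fit of these arrays alone (0.00761) and the ABA change without ABA replicate 1 (-4.28, 0.0412). The difference between cop1-6 and WT in blue light, 1.64 ± 1.06 (adjusted p = 0.242), was likewise called with 19.1 added (0.81, 0.0120) and in a fit of these arrays alone (0.0335). CYP71B37 (AT3G26330) ran from 4.9 to 22.7 in darkness, 9.7 to 33.7 in blue light and, with ABA, 6.5 to 19.1, and no comparison called it with 1 added. Its ABA change in atmyc2, -1.52 ± 0.61 (adjusted p = 0.0835), was called with 19.1 added (-0.75, 0.0417) and in a fit of these arrays alone (0.0111), and its light change there, 1.12 ± 0.61 (0.132), in such a fit (0.0371).

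The third question was what each mutation changed. Between atmyc2 and WT, 1 member was called in darkness (7.69%, against 11.0% of probe sets), and none in blue light (0.0123% of probe sets) or with ABA (0.0370%). At an unadjusted p below 0.05 these counts were 3, 1 and 0. CYP71B23 in darkness, -1.13 ± 0.40 (adjusted p = 0.0757), was called in a fit of these arrays alone (0.00807). Between cop1-6 and WT, 2 members were higher and 3 lower in darkness (38.5% against 29.3%), 5 higher and 1 lower in blue light (46.2% against 35.2%), and none was called with ABA (4.85% of probe sets), where 3 had an unadjusted p below 0.05. CYP71B29 alone was called with ABA once replicate 1 of cop1-6 was left out (log2 -1.84, adjusted p = 0.00773). The members' median log2 difference between cop1-6 and WT was -0.08 in darkness, 0.57 in blue light and -0.08 with ABA, beside -0.04, 0.07 and -0.01 over all probe sets.

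Between the double mutant and cop1-6, CYP71B6 and CYP71B23 were called higher in darkness (15.4%, against 1.67% of probe sets). None was called in blue light (0.0185% of probe sets) or with ABA (0.253%), where 1 and 2 had an unadjusted p below 0.05. In darkness 6 members had an unadjusted p below 0.05, among them CYP71B5 (0.65 ± 0.21, adjusted p = 0.0998), which was called without replicate 2 of cop1-6 (0.87, 0.0306).

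**Figure D4:**
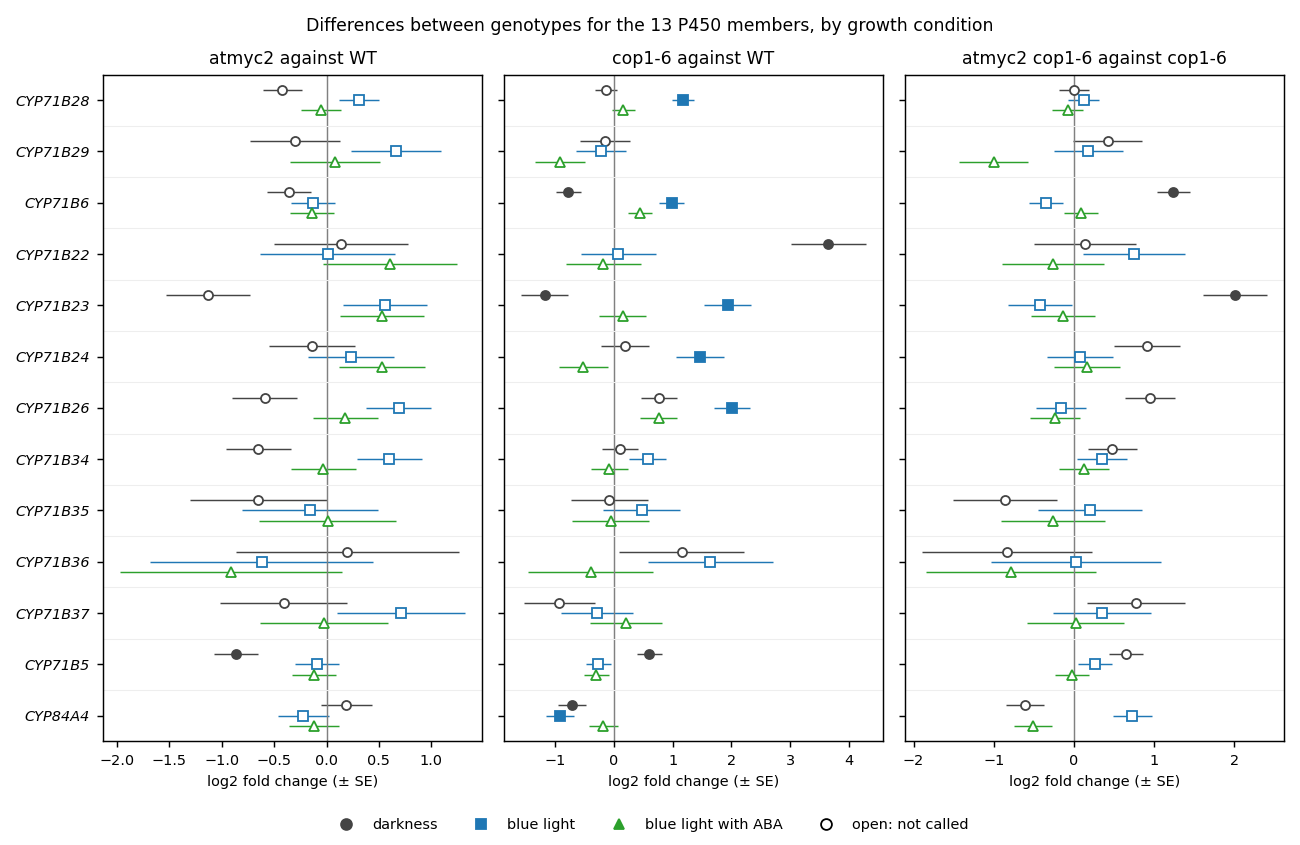
Log2 fold changes (± SE from limma) of the 13 members in gene order, for atmyc2 against WT (left), cop1-6 against WT (middle) and the double mutant against cop1-6 (right), in darkness, blue light and blue light with ABA, 2 arrays per group. Filled symbols are called at an adjusted p below 0.05, and the horizontal scales differ between panels. In the middle panel 6 members are filled in blue light, 5 in darkness and none with ABA.

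Differences between responses were tested directly. The light response of cop1-6 differed from that of WT for 6 members (46.2%, against 34.8% of probe sets), being larger for CYP71B28, CYP71B6, CYP71B23 and CYP71B26 and smaller for CYP71B22 and CYP71B5. As given above, the light calls of CYP71B22, CYP71B26 and CYP71B5 were lost under some alternatives. The ABA response of cop1-6 was lower than that of WT for CYP71B28 and CYP71B24 (15.4%, against 6.71%). Both calls were lost with quantile normalization and in a fit of these arrays alone, and also without some single arrays. The ABA response of CYP71B23 in cop1-6 was lower by -1.79 ± 0.56 (adjusted p = 0.0602). It was called with a replicate block (0.0483) and with 19.1 added (-1.47, 0.0247). It was also called without blue light replicate 2 of WT (-2.14) and without ABA replicate 2 of cop1-6 (-2.59). That of CYP71B26 was lower by -1.25 ± 0.44 (adjusted p = 0.0898) and was called with 19.1 added (-1.15, 0.0337) and without blue light replicate 2 of WT (-1.69, 0.0184). The light response of atmyc2 differed from that of WT for no member (7.94% of probe sets), although 5 had an unadjusted p below 0.05 and the members' median difference was 0.73 beside 0.21 over all probe sets. A replicate block gave 1 call there, CYP71B26 (log2 1.28, adjusted p = 0.0453). Without blue light replicate 2 of WT, CYP71B23 (2.04, adjusted p = 0.0307), CYP71B26 (1.72, 0.0153) and CYP71B34 (1.59, 0.0275) were called. CYP71B23 was also called without blue light replicate 1 of atmyc2 (2.20, 0.0346), CYP71B26 without dark replicate 2 of atmyc2 (1.75, 0.0377) and CYP71B5 without dark replicate 1 of WT (1.07, 0.0439). The ABA response of atmyc2 differed from that of WT for no member and for 0% of probe sets, with no member at an unadjusted p below 0.05.

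Whether the effect of atmyc2 depended on cop1-6 was tested as an interaction, chosen after the values were seen. In darkness CYP71B6 (log2 1.60 ± 0.29, adjusted p = 0.00321), CYP71B23 (3.13 ± 0.56, 0.00287), CYP71B26 (1.54 ± 0.44, 0.0299) and CYP71B5 (1.51 ± 0.29, 0.00389) were called, all with a positive sign (30.8%, against 13.1% of probe sets). For all 4 the group mean was lower in atmyc2 than in WT and higher in the double mutant than in cop1-6. The same held for CYP71B24, CYP71B29, CYP71B34 and CYP71B37, whose interaction was not called. Of the 4, only CYP71B5 was called lower in atmyc2, and only CYP71B6 and CYP71B23 were called higher in the double mutant. CYP71B34, at 1.13 ± 0.44 (0.0958), was called without replicate 2 of cop1-6 (1.42, 0.0435). The CYP71B26 call was lost with 19.1 added (1.00, 0.0520), with quantile normalization (0.0868), in a fit of these arrays alone (0.0664) and without WT replicate 2 (0.114), atmyc2 replicate 1 (0.141), cop1-6 replicate 1 (0.155) or either double mutant array (0.111 and 0.0557). The summed root markers in darkness were 59.8 and 141.3 in WT, 169.1 and 151.7 in atmyc2, 72.5 and 43.8 in cop1-6 and 5.7 and 14.8 in the double mutant, and their part in these results was not tested. In blue light and with ABA the interaction was called for no member and for 0% of probe sets, with 1 and 0 members at an unadjusted p below 0.05.

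Other genes of the pathways around these enzymes were looked up by locus. None of 8 P450 reductases and cytochromes b5, the redox partners, had a listed probe set with 1 gene, and neither had any of 9 genes of camalexin and auxin synthesis around CYP71B6. Of 17 further phenylpropanoid and flavonoid genes 3 had one, and HCT and DFR were tested while BAN was too dim. HCT, which makes the shikimate ester that is hydroxylated in lignin synthesis, read 1820.7 and 1825.2 in WT darkness and 856.7 and 566.7 in WT blue light. It fell in light in all 4 genotypes, by log2 -1.39 ± 0.21 in WT, -1.56 ± 0.21 in atmyc2, -1.10 ± 0.21 in cop1-6 and -1.07 ± 0.21 in the double mutant, and no ABA change was called. DFR, the dihydroflavonol reductase of anthocyanin synthesis, read 8.2 to 14.8 in WT and 59.1 to 107.3 in cop1-6 in blue light (log2 2.74 ± 0.65, adjusted p = 0.00407). In light, 22.2% of all tested probe sets were called lower in WT, 20.3% in atmyc2 and 23.5% in cop1-6. CYP84A4 and HCT were both lower in light in WT, atmyc2 and cop1-6. Both were lower in cop1-6 than in WT in darkness and blue light, where 13.2% and 16.1% of all tested probe sets were called lower. HCT means were 1822.95 in WT and 899.0 in cop1-6 in darkness, and 711.7 and 416.9 in blue light. With ABA, CYP84A4 was called higher in WT, atmyc2 and cop1-6, unlike HCT. In the double mutant CYP84A4 had no called light change. DFR went the other way in cop1-6 in blue light.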

How the data were processed

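Transcripts were measured on Affymetrix arrays, 1 per sample. The authors deposited a table of intensity values, 1 for each probe set on each array, made with GCOS 1.4 according to the submitters' processing notes, and no further scaling was applied. Genes were named from the platform annotation, which lists 1 gene for 13513 probe sets, several for 503 and none for 8794. Of the first, 13436 matched the RefSeq table, which was used for names and gene order only.

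The means of 12 groups of 2 arrays were fitted to log2 (signal + 1) of 16202 probe sets with limma 3.58.1 in R 4.3.3 (lmFit and eBayes with trend and robust), after 64 control probe sets and those dim in every group were set aside. P-values were adjusted after Benjamini and Hochberg over all of them within each of 24 comparisons. The fit was tested on simulated data for cop1-6 against WT in blue light. It recovered 45 of 100 probe sets with a log2 change of 1 and 84 of 100 with 2, with 11 false calls. An uncalled change is therefore not evidence of no change. The number of arrays limits the precision. Alternatives were other pseudocounts, filters and normalization, plain moderation, a replicate block, fewer arrays and each array left out.

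Every member is named, so the naming rule (known role, brightest, largest called changes) left none out. Members, lists and tests were chosen with earlier results of these data known.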

Additional observations from a re-analysis of the deposited data

Results flagged for a closer look

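These results concern responses that differed between genotypes by a test of the difference itself, on the log2 scale. The light response of cop1-6 minus that of WT was 1.31 for CYP71B28, 1.76 for CYP71B6, 3.13 for CYP71B23 and 1.24 for CYP71B26, and it was -3.59 for CYP71B22 and -0.87 for CYP71B5. The ABA response of cop1-6 minus that of WT was -1.02 for CYP71B28 and -1.98 for CYP71B24. The effect of atmyc2 in the cop1-6 background minus that in WT, in darkness, was 1.60 for CYP71B6, 3.13 for CYP71B23, 1.54 for CYP71B26 and 1.51 for CYP71B5. This interaction was chosen after the values were seen. With 19.1 added to the signals in place of 1, the CYP71B22 value was -1.15 (adjusted p = 0.128). As given above, alternatives also ended the calls of both CYP71B26 values, of the CYP71B5 light value and of both ABA values. No group was large enough to look for outlying arrays.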

How the results depend on the processing

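Of 73 called results of single members, 41 stayed called under every alternative run, 32 were lost under at least 1 (14 of them only when an array was left out), and 0 reversed. Of 239 uncalled results, 26 were called under at least 1 alternative, with 42 such calls (12 with a pseudocount at the 40th percentile, 7 in a fit of the arrays compared alone, 4 with a replicate block, 1 without trend and robust moderation and 18 with an array left out), beside 105 calls lost over all alternatives. Counts of called members moved by more than 1.5 times as follows, and the cause was not tested. For the ABA response of cop1-6 minus that of WT (2 members) the count was 4 with a pseudocount at the 40th percentile, 1 without a dim filter, 0 with quantile normalization, 1 without trend and robust moderation and 0 in a fit of those arrays alone. For ABA in the double mutant (5) it was 3 with a filter at the 60th percentile, where fewer probe sets were tested. For cop1-6 against WT in darkness (5) it was 3 with quantile normalization and 3 in a fit of those arrays alone. In such a fit it was 0 for ABA in cop1-6 (5) and 2 for atmyc2 against WT in darkness (1). With the replicate block it was 1 for the light response of atmyc2 minus that of WT (0), and no other count moved that far. Replicate differences correlated between groups with r from -0.15 to 0.31 (median -0.01). Whether arrays of equal replicate number share a preparation is not stated, and these correlations cannot settle it. With each array left out in turn the counts ran from 2 to 4 for cop1-6 against WT in darkness, 0 to 1 for atmyc2 against WT in darkness, 0 to 3 for the double mutant against cop1-6 in darkness, 0 to 1 for cop1-6 against WT with ABA, 3 to 5 for ABA in cop1-6, 2 to 4 for ABA in atmyc2, 0 to 4 for the ABA response of cop1-6 minus that of WT, and 0 to 3 for the light response of atmyc2 minus that of WT. A left-out array leaves 1 array in its group, which is assumed to vary like the others. Folds of members that are dim in 1 group depend on the pseudocount.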
